A study of Mus musculus with 6 samples.

Results

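Interferon-stimulated genes are the effector arm of the interferon response, and 48 of them were described here: those outside the Ifit, Oas, Gbp, Irf and RNA sensor families, chosen by name out of 55367 gene symbols in the count table. When an interferon binds its receptor, receptor-bound kinases activate transcription factors, among them STAT2 with IRF9, which bind the interferon-stimulated response element (ISRE) in promoters. The proteins so induced tag others with ISG15, trap or degrade viral components, sense foreign nucleic acid and brake the signal again. Fibroblastic reticular cells (FRCs) are the stromal cells of lymph nodes, and fibroblasts in general respond to interferon in this way.

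The RNA came from a mouse FRC line held for 96 h in conditioned medium, renewed every 48 h, with 2 libraries for each of 3 media and 6 in all. The first medium had been conditioned by 4T1 cells and the second by 67NR cells, a pair of related mouse mammary tumour lines known as metastatic and non-metastatic, and the control medium by FRCs themselves. Conditioning lasted 24 h in plain RPMI, and every medium was then given antibiotics and 2% serum. No group received unconditioned medium, so factors added by the tumour cells, factors of FRCs that are missing and nutrients used up cannot be told apart. The cells are a line, and nothing says that libraries of 1 medium came from separate cultures, so a p-value here reflects only the spread of these samples, which may be technical. Total counts per library ranged from 13581510 to 21797578. The correlation was at least 0.992 within a medium and at most 0.979 between media. Of 11 FRC and fibroblast markers, Thy1, Ccl19 and Ccl21a had 0 counts in every library, while Pdpn, Pdgfra, Pdgfrb, Vcam1 and Col1a1 were detected throughout. The 11 summed to 7943 and 8429 CPM (counts scaled to a common library size) in 4T1 medium, 16640 and 15833 CPM in 67NR medium and 14909 and 14322 CPM in control medium, mostly through the collagen gene Col1a1. Leukocyte markers (9 genes) summed to 4.93 and 4.96 CPM in 4T1 medium, 12.5 and 11.6 CPM in 67NR medium and 7.01 and 8.47 CPM in control medium. Cd3e, Adgre1 and Siglech were at 0 everywhere, but 3 leukocyte markers had enough counts to be tested. Against control medium, 1 was called lower in 4T1 medium and 1 higher in 67NR medium. Epithelial markers (8 genes), a sign of tumour cells, summed to 0.218 to 2.39 CPM over the 6 libraries, highest in control medium, with Epcam, Esrp1 and Cldn4 at 0. Endothelial markers (6 genes) summed to 1.01 and 0.763 CPM in 4T1 medium, 3.71 and 3.31 CPM in 67NR medium and 2.34 and 3.57 CPM in control medium, and 2 of them were called lower in 4T1 than in control medium. The part of any such cells in the results was not tested, and in bulk RNA a change in the number of cells that respond and in RNA per cell cannot be told apart.

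The ISRE is known as the promoter element of the type I interferon response, and stretches that hold its core are shown here for members that differed between the media. RefSeq promoter windows (GRCm38.p6, 250 bases before to 50 after the start) were found for 37 of the 48 genes. The ISRE core (GAAA, then 2 bases of any kind, then GAAA), on either strand and with overlapping matches allowed, occurred in 13 of the 37 (35.1%), against 3.99% of 27025 genes with a window. The interferon gamma motif GAS (TTC, 3 bases of any kind, GAA) occurred in 5 of the 37 (13.5%), against 9.55% of all genes, and the NF-kB motif (GGGA, any base, TTTCC) in none of the 37, against 0.466% of all. These letters are a description of the windows and not evidence of binding, and no match says only that the letters are missing from this window. The stretches below are written 5′ to 3′ on the strand of the gene and end before its start, with ISRE core matches in capitals. Isg15, Bst2, Ddx60 and Rsad2 were higher in 67NR medium than in 4T1 medium. Of these, Rsad2 passed the filter on low counts only through its counts in 67NR medium. Trim30a rose in both tumour media with no call between them, and Ifitm2 was higher in 4T1 medium.
Isg15 (chr4:156200855-156200916, minus strand): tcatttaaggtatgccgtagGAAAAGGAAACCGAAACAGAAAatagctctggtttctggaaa
Bst2 (chr8:71537567-71537622, minus strand): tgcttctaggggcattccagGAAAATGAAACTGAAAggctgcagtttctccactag
Ddx60 (chr8:61928014-61928086, plus strand): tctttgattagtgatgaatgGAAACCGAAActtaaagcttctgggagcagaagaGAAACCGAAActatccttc
Rsad2 (chr12:26456543-26456592, minus strand): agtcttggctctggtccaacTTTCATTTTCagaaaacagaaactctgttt
Trim30a (chr7:104465200-104465249, minus strand): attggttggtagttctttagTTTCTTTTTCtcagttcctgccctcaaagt
Ifitm2 (chr7:140955978-140956027, minus strand): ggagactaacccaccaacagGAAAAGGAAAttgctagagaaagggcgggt
Isg15 held 3 overlapping matches between bases -78 and -57, Bst2 held 2 overlapping matches, and Ddx60 held 2 separate ones. In Rsad2 and Trim30a the match lay on the opposite strand.

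All but 1 of the tested members rose in 67NR medium, 38 of them were lower in 4T1 than in 67NR medium, and 4 were higher there. Of the 48, 46 passed the filter on low counts and were tested. Against control medium, 33 were higher and 2 lower in 4T1 medium, and 45 were higher and none lower in 67NR medium, by edgeR quasi-likelihood at an adjusted p under 0.05. Among all 15055 genes tested, 19.9% were higher and 19.2% lower in 4T1 medium, and 13% were higher and 14.6% lower in 67NR medium. Between the tumour media, 4 members were higher and 38 lower in 4T1 than in 67NR medium, where 23.5% of all genes were higher and 19.9% lower. The median log2 fold change of the tested members was 0.64 for 4T1 against control, 1.17 for 67NR against control and -0.63 for 4T1 against 67NR, with medians over all genes of 0.01, 0.00 and 0.03. Rsad2, Mx1 and Cmpk2 passed the filter only through their counts in 67NR medium. Without these 3, 42 of 43 members were higher in 67NR than in control medium and 35 of 43 lower in 4T1 than in 67NR medium. A rise of at least 2-fold was called for 14 members in 4T1 medium (5.41% of all genes) and for 27 in 67NR medium (2.44%), and 18 were at least 2-fold lower in 4T1 than in 67NR medium (4.98%). Against control, both 4T1 libraries lay above both control libraries for 36 members and below for 3 (34.5% and 32.8% of all genes), and both 67NR libraries above for 45 and below for 1 (34% and 33.5%). Between the tumour media both 4T1 libraries lay above for 4 members and below for 41 (37.2% and 32.8%). Rsad2, Mx1 and Cmpk2, which entered only through 67NR medium, are counted in the 27, the 18, the 45 and the 41. The comparisons share libraries, so their counts are not independent.

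By these calls the tested members fell into 3 kinds, which describe the data and carry no test of their own. Called 67NR-high were 38 members that rose in 67NR medium and were higher there than in 4T1 medium, a pattern shown by 7.01% of all genes tested. In this set 25 also rose in 4T1 medium against control, 2 fell and 11 did not pass. Rsad2, Mx1 and Cmpk2, which entered the test only through 67NR medium, are among the 38 and among these 11. Shared were Trim21, Trim25, Trim30a and Ifi27, which rose in both tumour media with no call between them (2.68% of all genes). For 3 of them, all but Trim30a, both 4T1 libraries lay below both 67NR libraries (32.8% of all genes). Trim25 was called lower in 4T1 than in 67NR medium with RLE scaling (edgeR quasi-likelihood adjusted p = 0.0413). Trim21 was so in the 4-library fit (edgeR quasi-likelihood adjusted p = 0.04996). Shared therefore means no call, not an equal level. Called 4T1-high were Ifitm2, Ifitm3, Ifi204 and Pnpt1, which rose in 4T1 medium and were higher there than in 67NR medium (13.4% of all genes). The 4T1-high set shrank to Ifitm2 and Ifitm3 without control replicate 1 and with DESeq2, and the shared set grew to 8 members without 67NR replicate 1.

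**Figure D1:**
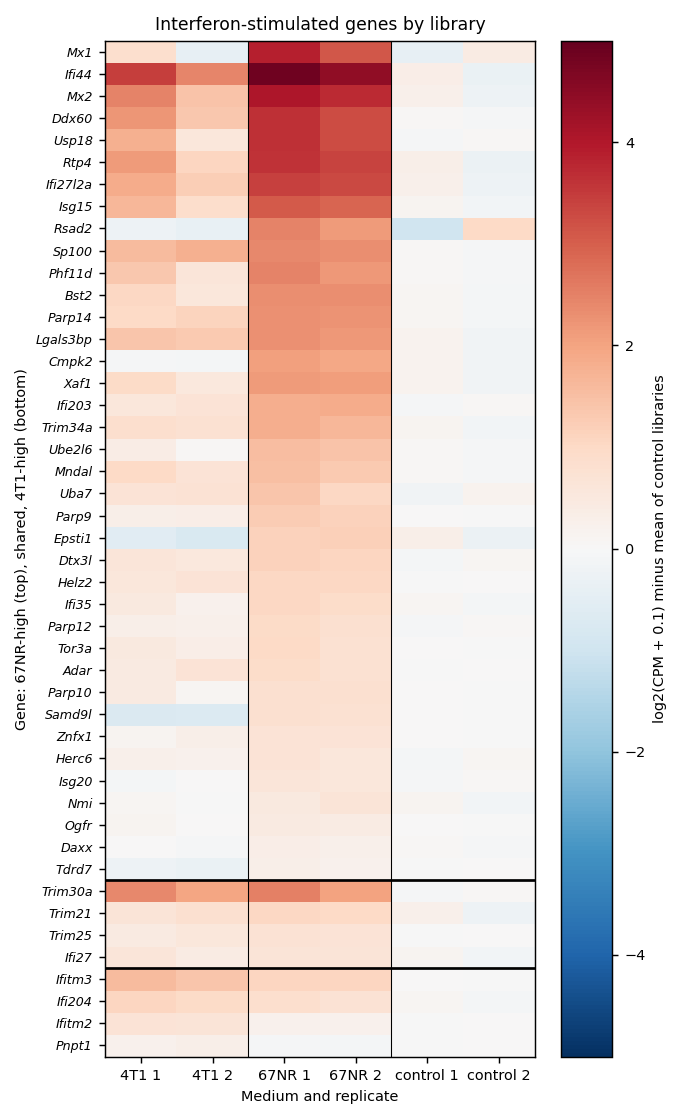
Colours give log2(CPM + 0.1) of each tested gene (rows) in each library (columns) minus the mean of both control libraries, with the 38 67NR-high genes above the 4 shared and 4 4T1-high genes. The 67NR columns are red in nearly every row, and in the rows of Ifi44, Mx2, Ddx60, Usp18, Rtp4, Ifi27l2a and Isg15 the first 4T1 library is redder than the second.

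The ISG15 conjugation genes encode a ubiquitin-like tag and the enzymes that attach and remove it, and all 6 rose in 67NR medium while 4 of 6 rose in 4T1 medium. Among all genes tested, 13% rose in 67NR medium, and 19.9% rose and 19.2% fell in 4T1 medium. Lower in 4T1 than in 67NR medium were 19.9%. The same shares belong beside the counts of the other role sets below. Isg15, the tag itself (chromosome 4, 156199424 to 156200818), had 21.2 and 12.1 CPM in 4T1 medium, 55.7 and 49.7 CPM in 67NR medium and 7.27 and 5.95 CPM in control medium. The 3 media did not overlap. Its log2 fold change was 1.29 for 4T1 against control (SE 0.22, edgeR quasi-likelihood adjusted p = 0.00055), 2.98 for 67NR against control (SE 0.20, edgeR quasi-likelihood adjusted p = 2.72e-07) and -1.69 for 4T1 against 67NR (SE 0.17, edgeR quasi-likelihood adjusted p = 4.29e-06). Usp18, the protease that removes ISG15 and also blocks signalling at the interferon receptor, had 4.39 and 1.85 CPM in 4T1 medium, 16.4 and 12.3 CPM in 67NR medium and 1.14 and 1.26 CPM in control medium. It was higher in 67NR than in control medium by 3.58 (SE 0.31, edgeR quasi-likelihood adjusted p = 2.93e-06) and lower in 4T1 than in 67NR medium, at -2.25 (SE 0.26, edgeR quasi-likelihood adjusted p = 1.41e-05), both on the log2 scale. Its rise in 4T1 medium (log2 1.33, SE 0.41, edgeR quasi-likelihood adjusted p = 0.021) rested on single libraries. Without 4T1 replicate 1 it was 0.62 (adjusted p = 0.225, the highest over all alternatives, which began at 7.7e-06), and the call also ended without control replicate 1 (adjusted p = 0.135) or control replicate 2 (adjusted p = 0.0684).

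Of the conjugating enzymes, Uba7, the activating enzyme for ISG15, averaged 10.8 ± 0.104 CPM in 4T1, 15.5 ± 2.78 CPM in 67NR and 6.61 ± 1.05 CPM in control medium (mean ± SD, n = 2 each). Ube2l6, the conjugating enzyme, averaged 13.2 ± 2.23 CPM in 4T1, 32 ± 2.18 CPM in 67NR and 11.3 ± 0.571 CPM in control medium. Herc6, which takes the part of HERC5 in mice, averaged 6.95 ± 0.204 CPM in 4T1, 9.22 ± 0.451 CPM in 67NR and 5.92 ± 0.665 CPM in control medium. Trim25, a ligase that also activates RIG-I, averaged 65.3 ± 3.97 CPM in 4T1, 74 ± 1.45 CPM in 67NR and 45.4 ± 1.33 CPM in control medium. Neither Ube2l6 nor Herc6 passed for 4T1 against control (log2 0.21 and 0.24), both rose in 67NR medium (log2 1.49 and 0.65), and both were lower in 4T1 than in 67NR medium. Several calls in this set ended when 1 library was left out: Uba7 in 4T1 against control without control replicate 1 (adjusted p = 0.0753) and in 4T1 against 67NR without 67NR replicate 1 (adjusted p = 0.163), and Herc6 in 67NR against control without control replicate 1 (adjusted p = 0.0741). The Herc6 difference between the tumour media also ended without 4T1 replicate 2, 67NR replicate 1 or 67NR replicate 2 (adjusted p = 0.0998, 0.164 and 0.0726), and with DESeq2 (adjusted p = 0.135). Conversely, Ube2l6 passed in 4T1 against control without 4T1 replicate 2 (adjusted p = 0.0426) and Trim25 passed in 4T1 against 67NR (adjusted p = 0.0134).

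**Figure D2:**
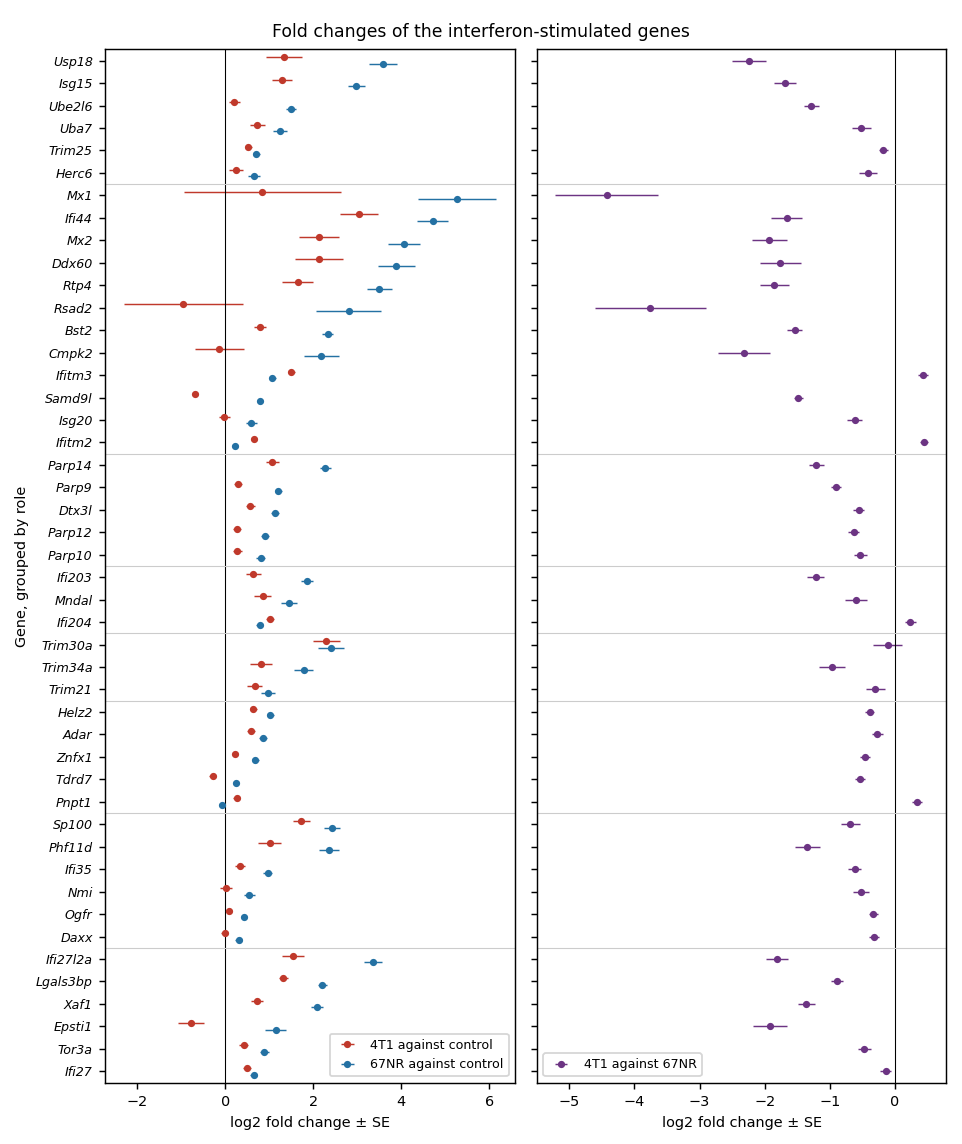
Points give log2 fold changes and bars their standard errors for the 46 tested genes, grouped by role, with 4T1 (red) and 67NR (blue) against control on the left and 4T1 against 67NR on the right. In most rows the blue point lies right of the red one, and Ifitm3, Ifitm2, Ifi204 and Pnpt1 lie right of 0 in the right panel.

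Among the 13 antiviral effectors, 12 were tested and all 12 rose in 67NR medium, while 7 rose and 1 fell in 4T1 medium. Without Rsad2, Mx1 and Cmpk2, 9 of 9 rose in 67NR medium, and 7 of 9 rose and 1 fell in 4T1 medium. Ifi44, a cytoplasmic interferon-induced protein, had 9.46 and 4.58 CPM in 4T1 medium, 24.9 and 18.5 CPM in 67NR medium and 0.986 and 0.595 CPM in control medium. It rose by 3.05 in 4T1 medium (SE 0.43, edgeR quasi-likelihood adjusted p = 9.51e-05) and by 4.71 in 67NR medium (SE 0.35, edgeR quasi-likelihood adjusted p = 7.18e-07), and was lower in 4T1 than in 67NR medium, at -1.67 (SE 0.24, edgeR quasi-likelihood adjusted p = 8.46e-05), on the log2 scale. Rtp4, a Golgi chaperone induced by interferon, had 7.16 and 3.43 CPM in 4T1 medium, 20.1 and 17.2 CPM in 67NR medium and 1.92 and 1.26 CPM in control medium. Its log2 fold change was 1.65 for 4T1 against control (SE 0.35, edgeR quasi-likelihood adjusted p = 0.00213), 3.50 for 67NR against control (SE 0.28, edgeR quasi-likelihood adjusted p = 1.34e-06) and -1.85 for 4T1 against 67NR (SE 0.23, edgeR quasi-likelihood adjusted p = 2.3e-05). For both genes the 3 media did not overlap, and the first 4T1 library was above the second.

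Bst2, the tetherin that holds budding virions at the cell surface (chromosome 8, 71534255 to 71537456), had 33.9 and 24.7 CPM in 4T1 medium, 85 and 84.5 CPM in 67NR medium and 17.8 and 15.8 CPM in control medium. It rose by 0.79 in 4T1 medium (SE 0.13, edgeR quasi-likelihood adjusted p = 0.000427) and by 2.33 in 67NR medium (SE 0.12, edgeR quasi-likelihood adjusted p = 5.44e-08), and was lower in 4T1 than in 67NR medium, at -1.54 (SE 0.11, edgeR quasi-likelihood adjusted p = 2.35e-07), on the log2 scale. Mx2, a dynamin-like GTPase, had 3.04 and 1.42 CPM in 4T1 medium, 9.13 and 7.35 CPM in 67NR medium and 0.571 and 0.372 CPM in control medium. Its log2 fold change was 2.13 for 4T1 against control (SE 0.46, edgeR quasi-likelihood adjusted p = 0.0026), 4.06 for 67NR against control (SE 0.36, edgeR quasi-likelihood adjusted p = 3.17e-06) and -1.93 for 4T1 against 67NR (SE 0.27, edgeR quasi-likelihood adjusted p = 6.62e-05). Ddx60, a helicase-like antiviral factor, averaged 1.12 ± 0.512 CPM in 4T1, 3.71 ± 0.71 CPM in 67NR and 0.241 ± 0.0259 CPM in control medium. Its call in 4T1 against control ended without 4T1 replicate 1 (adjusted p = 0.0606) or control replicate 1 (adjusted p = 0.0595). Leaving out 4T1 replicate 1 also brought the log2 fold changes against control to 2.45 for Ifi44, 1.05 for Rtp4 and 1.51 for Mx2, all of which still passed, and those against 67NR to -2.26 for Ifi44, -2.45 for Rtp4, -2.54 for Mx2 and -2.96 for Usp18.

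Mx1 and the neighbours Rsad2 and Cmpk2 were near the limit of detection outside 67NR medium. Mx1, the paralog of Mx2, had 2 and 0 counts in 4T1 medium, 40 and 21 counts in 67NR medium and 0 and 1 counts in control medium. At scaled library totals it was 47.4 times higher in 67NR than in control medium, and its ratio of 4T1 to 67NR medium was 0.0417. Both ratios rest on very few counts outside 67NR medium. Rsad2, which encodes viperin, the enzyme that makes a chain-terminating nucleotide, had 1 and 1 counts in 4T1 medium, 22 and 16 in 67NR medium and 0 and 4 in control medium. Its ratio of 4T1 to 67NR medium was 0.0669, and that of 67NR to control medium 7.38, again from very few counts outside 67NR medium. All 4 control counts of Rsad2 were in replicate 2. Neither gene passed for 4T1 against control (edgeR quasi-likelihood adjusted p = 0.747 for Mx1 and 0.616 for Rsad2). All 3 genes entered the test only through their counts in 67NR medium, so neither p nor interval is given for their comparisons with that medium. Cmpk2, a mitochondrial nucleotide kinase whose start lies 12.8 kb from that of Rsad2, had 5 and 6 counts in 4T1 medium, 38 and 33 in 67NR medium and 8 and 4 in control medium.

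The interferon-induced transmembrane proteins, which block the fusion of viruses with endosomes, behaved otherwise. Ifitm3 (chromosome 7, 141009586 to 141010770) had 485 and 418 CPM in 4T1 medium, 338 and 333 CPM in 67NR medium and 164 and 156 CPM in control medium. Here the 4T1 libraries were the highest and the 3 media did not overlap. Its log2 fold change was 1.50 for 4T1 against control (SE 0.08, edgeR quasi-likelihood adjusted p = 7.29e-09), 1.07 for 67NR against control (SE 0.08, edgeR quasi-likelihood adjusted p = 4.9e-07) and 0.43 for 4T1 against 67NR (SE 0.07, edgeR quasi-likelihood adjusted p = 0.000426). Ifitm2, 54.8 kb away on the same strand, had 132 and 129 CPM in 4T1 medium, 96.2 and 95.8 CPM in 67NR medium and 81.6 and 83.8 CPM in control medium. Its call in 67NR against control (log2 0.22, SE 0.06) ended when any library of these 2 media was left out (adjusted p = 0.102 to 0.177) and with DESeq2 (adjusted p = 0.0564), whereas its rise in 4T1 medium (log2 0.65) and its difference between the tumour media (log2 0.44) held in every alternative. Ifitm1 failed the filter, with 7 and 10 counts in 4T1 medium, 9 and 1 in 67NR medium and 3 and 3 in control medium. Per kilobase of exon, Ifitm3 and Ifitm2 were the most abundant members in all 3 media, at 666 and 199 CPM per kb in 4T1, 495 and 147 in 67NR and 236 and 126 in control medium. The Ifitm genes are close paralogs, so the division of reads among them is uncertain.

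The effectors Samd9l and Isg20 were not raised in 4T1 medium. Samd9l, an inhibitor of translation and of cell growth (chromosome 6, 3372257 to 3399572), had 44.6 and 46.2 CPM in 4T1 medium, 129 and 125 CPM in 67NR medium and 75.1 and 71.9 CPM in control medium. It fell in 4T1 medium, at log2 -0.69 (SE 0.07, edgeR quasi-likelihood adjusted p = 5.41e-06), rose in 67NR medium, at log2 0.79 (SE 0.07, edgeR quasi-likelihood adjusted p = 2.09e-06), and these calls held in each of 13 alternatives. Isg20, an exonuclease of RNA, had 9.4 and 10.3 CPM in 4T1 medium, 15.4 and 14.9 CPM in 67NR medium and 9.55 and 10.6 CPM in control medium. Its libraries in 4T1 and control medium overlapped.

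**Figure D3:**
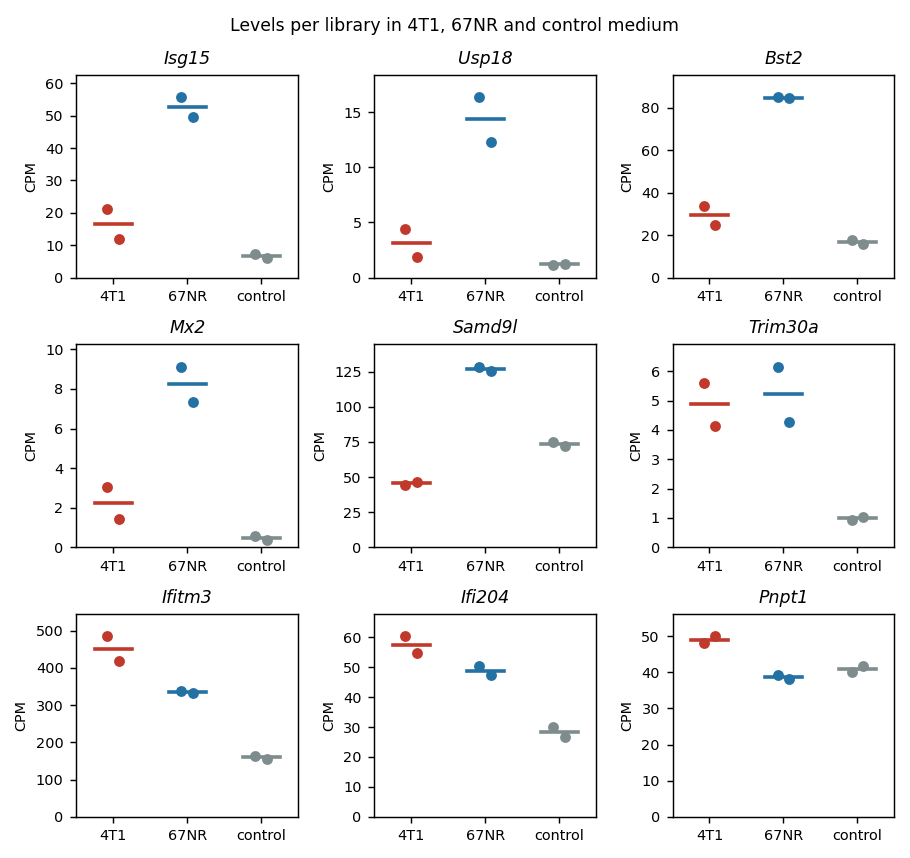
Points are CPM of single libraries and bars the means of 2 libraries for 9 genes, each on a linear axis from 0. Isg15, Usp18, Bst2 and Mx2 are highest in 67NR medium, and Samd9l is lowest in 4T1 medium. The libraries of the tumour media overlap for Trim30a, and Ifitm3, Ifi204 and Pnpt1 are highest in 4T1 medium.

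The ADP-ribosyltransferases of the set and the ubiquitin ligase Dtx3l, the partner of Parp9, all 5 rose in 67NR medium and all 5 were lower in 4T1 than in 67NR medium. Parp14, which mono-ADP-ribosylates its targets, had 9.19 and 10.1 CPM in 4T1 medium, 22.9 and 21.8 CPM in 67NR medium and 4.83 and 4.31 CPM in control medium, and was the member of this set with the highest folds (log2 1.07 for 4T1 and 2.28 for 67NR against control). Parp9 averaged 27.4 ± 0.39 CPM in 4T1, 51.5 ± 3.18 CPM in 67NR and 22.3 ± 0.844 CPM in control medium, and Dtx3l 24.1 ± 1.1, 35.5 ± 1.75 and 16.3 ± 1.59 CPM in the same media. These neighbours on chromosome 16 run in opposite directions from starts 0.681 kb apart. They share 458 bases of exon, out of 4872 for Parp9 and 5725 for Dtx3l. Reads within the shared bases can be told apart only if strand was counted. The folds of Parp10 and Parp12 in 4T1 medium were small (log2 0.27 and 0.26). Parp12 passed narrowly (edgeR quasi-likelihood adjusted p = 0.0414) and lost its call in 10 of 13 alternatives, including each library left out (adjusted p = 0.0573 to 0.261). Parp10 missed (adjusted p = 0.0503) and passed without 4T1 replicate 2 (adjusted p = 0.00105), while Parp9 lost its call in 4T1 against control without 4T1 replicate 2, control replicate 1 or control replicate 2 (adjusted p = 0.0551, 0.0722 and 0.114), and with DESeq2 (adjusted p = 0.084).

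The PYHIN proteins bind DNA, and their 3 genes rose in both tumour media but in different order. Ifi203 had 5.81 and 6.37 CPM in 4T1 medium, 14.1 and 14.4 CPM in 67NR medium and 3.79 and 4.09 CPM in control medium. Mndal averaged 5.09 ± 0.732 CPM in 4T1, 7.65 ± 0.774 CPM in 67NR and 2.79 ± 0.164 CPM in control medium. Ifi204, a sensor of cytosolic and nuclear DNA, had 60.4 and 54.7 CPM in 4T1 medium, 50.4 and 47.3 CPM in 67NR medium and 30.1 and 26.8 CPM in control medium, so that here the 4T1 libraries were highest. The difference between the tumour media was small (log2 0.23, SE 0.08, edgeR quasi-likelihood adjusted p = 0.0369) and lost its call in 7 of 13 alternatives (adjusted p 0.0107 to 0.245 over all of them). Among these were the fits without 4T1 replicate 1 (adjusted p = 0.163), 67NR replicate 1 (adjusted p = 0.0831), 67NR replicate 2 (adjusted p = 0.245) and control replicate 1 (adjusted p = 0.0595). Ifi203 in 4T1 against control ended without control replicate 1 (adjusted p = 0.069), and Mndal in 4T1 against 67NR without 4T1 replicate 2 (adjusted p = 0.0824) or 67NR replicate 1 (adjusted p = 0.105), and with DESeq2 (adjusted p = 0.0594). An identical stretch with an ISRE core, shown because both genes are 67NR-high neighbours, stands upstream of a start of each, while 195 of 299 aligned bases of their windows (65.2%) were identical.
Ifi203 (chr1:173942498-173942547, minus strand): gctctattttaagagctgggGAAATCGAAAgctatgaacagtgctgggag
Mndal (chr1:173880194-173880243, minus strand): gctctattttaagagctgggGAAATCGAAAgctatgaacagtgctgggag
The annotation also lets Mndal and Ifi203 share 37 bases of exon, and they are paralogs, so their separate levels are uncertain.

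Besides Trim25, described above with the ISG15 conjugation genes, the TRIM genes, which encode ubiquitin ligases, held 2 of the 4 shared members. Trim30a, a brake on Toll-like receptor signalling in mice, had 5.61 and 4.14 CPM in 4T1 medium, 6.16 and 4.28 CPM in 67NR medium and 0.934 and 1.04 CPM in control medium. The tumour media overlapped with each other and both lay above control, with log2 fold changes of 2.29 for 4T1 (SE 0.31, edgeR quasi-likelihood adjusted p = 6.2e-05) and 2.41 for 67NR (SE 0.29, edgeR quasi-likelihood adjusted p = 5.48e-05). Between the tumour media it was -0.12 (SE 0.22, edgeR quasi-likelihood adjusted p = 0.705), which does not show that they act alike. Trim21, a cytosolic antibody receptor, had 9.19 and 10.2 CPM in 4T1 medium, 12.2 and 11.9 CPM in 67NR medium and 7.11 and 4.91 CPM in control medium, and its 4T1 call ended without control replicate 2 (adjusted p = 0.0614). Trim34a had 2.7 and 2.56 CPM in 4T1 medium, 5.37 and 4.91 CPM in 67NR medium and 1.61 and 1.34 CPM in control medium. Its rise in 4T1 medium (log2 0.81) ended when any library of 4T1 or control medium was left out (adjusted p = 0.0504 to 0.103) and with DESeq2 (adjusted p = 0.0975).

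Genes that bind or process nucleic acid were moderately changed, and 4 of 5 tested rose in each tumour medium. Adar, which edits adenosine in double-stranded RNA, averaged 51.4 ± 5.83 CPM in 4T1, 62.2 ± 3.81 CPM in 67NR and 34.6 ± 1.13 CPM in control medium. The helicases Helz2 and Znfx1 had means of 62.1 ± 3.09 and 78.8 ± 6.15 CPM in 4T1, 81.3 ± 0.51 and 109 ± 0.887 CPM in 67NR, and 39.9 ± 0.904 and 67.6 ± 0.115 CPM in control medium. The folds of Znfx1 were the smaller, and its call in 4T1 against control (log2 0.22) ended in 7 of 13 alternatives (adjusted p = 0.00336 to 0.156), among them each library left out except 4T1 replicate 1. The Adar difference between the tumour media (log2 -0.27) ended without 4T1 replicate 1 (adjusted p = 0.0984) or 67NR replicate 1 (adjusted p = 0.193). Tdrd7, a Tudor domain protein of RNA granules, had 46.8 and 45.4 CPM in 4T1 medium, 69 and 64.8 CPM in 67NR medium and 55.2 and 57.6 CPM in control medium. It joined Samd9l as the only other member lower in 4T1 than in control medium (log2 -0.29, SE 0.07, edgeR quasi-likelihood adjusted p = 0.00796), a call that ended without control replicate 2 (adjusted p = 0.0718). The rise of Tdrd7 in 67NR medium (log2 0.25) ended when any library of 67NR or control medium was left out (adjusted p = 0.0668 to 0.216) and with DESeq2 (adjusted p = 0.0656).

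Pnpt1, the exoribonuclease of mitochondria, was the single tested member that did not rise in 67NR medium. It had 48 and 50 CPM in 4T1 medium, 39.3 and 38.2 CPM in 67NR medium and 40.1 and 41.8 CPM in control medium. It was higher in 4T1 than in 67NR medium (log2 0.34, SE 0.07, edgeR quasi-likelihood adjusted p = 0.00235) and than in control medium (log2 0.26, SE 0.08, edgeR quasi-likelihood adjusted p = 0.015), and the call against control ended without control replicate 1 (adjusted p = 0.151) or control replicate 2 (adjusted p = 0.053), and with DESeq2 (adjusted p = 0.0808). Trex1, a DNA exonuclease, had 0 counts in all 6 libraries. All 1147 bases of its exons lie within exons of Atrip on the same strand, so reads from it may not have been credited to it and the 0 is not a level.

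The nuclear and signalling partners all 6 rose in 67NR medium, and 3 of them rose in 4T1 medium. Sp100, a component of PML nuclear bodies, had 5.68 and 6.65 CPM in 4T1 medium, 10.3 and 9.63 CPM in 67NR medium and 1.92 and 1.78 CPM in control medium. Its rise in 4T1 medium was 1.73 on the log2 scale (SE 0.20, edgeR quasi-likelihood adjusted p = 1.59e-05) and that in 67NR medium 2.42 (SE 0.18, edgeR quasi-likelihood adjusted p = 7.14e-07). Phf11d averaged 6.15 ± 2.3 CPM in 4T1, 15.3 ± 2.45 CPM in 67NR and 2.97 ± 0.206 CPM in control medium, and its 4T1 call ended without 4T1 replicate 1 (adjusted p = 0.0773). Ifi35 and Nmi, which encode partners of each other, had different calls only in 4T1 against control, and were not tested against each other. Ifi35 averaged 24.9 ± 3.24 CPM in 4T1, 38.2 ± 1.66 CPM in 67NR and 19.5 ± 2.2 CPM in control medium and passed in both media, but not in 4T1 medium without 4T1 replicate 1 (adjusted p = 0.201) or control replicate 2 (adjusted p = 0.211), nor with DESeq2 (adjusted p = 0.0728). Nmi averaged 11.1 ± 0.49 CPM in 4T1, 15.9 ± 1.33 CPM in 67NR and 10.8 ± 1.43 CPM in control medium and passed in 67NR only, a call that ended without 67NR replicate 2 (adjusted p = 0.0685) or control replicate 2 (adjusted p = 0.065). The opioid growth factor receptor Ogfr and the histone chaperone Daxx were little changed, with log2 fold changes of 0.42 and 0.31 for 67NR and 0.08 and -0.01 for 4T1 against control. The Daxx call in 67NR against control ended without 67NR replicate 1 (adjusted p = 0.128) or control replicate 2 (adjusted p = 0.118), and that in 4T1 against 67NR without 67NR replicate 1 (adjusted p = 0.0669).

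Among the other 6 genes, 5 rose in 4T1 medium and all rose in 67NR medium. Ifi27l2a, a small hydrophobic interferon-induced protein, had 7.03 and 4.63 CPM in 4T1 medium, 21.2 and 19.3 CPM in 67NR medium and 2.28 and 1.56 CPM in control medium. Its log2 fold change was 1.53 for 4T1 against control (SE 0.25, edgeR quasi-likelihood adjusted p = 0.000335), 3.35 for 67NR against control (SE 0.21, edgeR quasi-likelihood adjusted p = 1.53e-07) and -1.82 for 4T1 against 67NR (SE 0.17, edgeR quasi-likelihood adjusted p = 1.8e-06). Ifi27, whose start lies 9.47 kb from that of Ifi27l2a, was among the shared members, at 126 and 110 CPM in 4T1 medium, 130 and 132 CPM in 67NR medium and 90.1 and 76.5 CPM in control medium. Without 4T1 replicate 1, Ifi27 was also lower in 4T1 than in 67NR medium (adjusted p = 0.0202).

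Lgals3bp, a secreted glycoprotein that binds galectin 3 (chromosome 11, 118392751 to 118402092), had 113 and 109 CPM in 4T1 medium, 212 and 197 CPM in 67NR medium and 49.5 and 38.6 CPM in control medium. It rose by 1.32 in 4T1 medium (SE 0.10, edgeR quasi-likelihood adjusted p = 2.8e-07) and by 2.21 in 67NR medium (SE 0.10, edgeR quasi-likelihood adjusted p = 2.74e-08) on the log2 scale. Xaf1, an antagonist of the apoptosis inhibitor XIAP, averaged 52.9 ± 11.5 CPM in 4T1, 135 ± 3.08 CPM in 67NR and 31.5 ± 6.01 CPM in control medium. Tor3a, a torsin ATPase, averaged 27 ± 2.14 CPM in 4T1, 37.4 ± 4.07 CPM in 67NR and 20.1 ± 0.432 CPM in control medium. Epsti1 had 1.28 and 1.09 CPM in 4T1 medium, 4.4 and 4.57 CPM in 67NR medium and 2.39 and 1.56 CPM in control medium, below control in both 4T1 libraries. That difference missed the threshold (log2 -0.78, SE 0.31, edgeR quasi-likelihood adjusted p = 0.0595) and passed without control replicate 2 (adjusted p = 0.0341).

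Among the members with a count in every library, the 4T1 libraries differed from each other most in those with a large rise in 67NR medium. Replicate 1 was above replicate 2 by 1.25 (log2) for Usp18, 1.10 for Mx2, 1.06 for Rtp4, 1.05 for Ifi44, 0.96 for Ddx60, 0.81 for Isg15 and 0.78 for Phf11d. Sp100, Adar, Parp14 and Ifi203 went the other way, by -0.23, -0.23, -0.13 and -0.13. Over the 44 members with a count in every library the median was 0.09 and 31 were higher in replicate 1, against a median of -0.01 and 47.3% over 14931 genes. Across these 44 genes the log2 ratio between the 4T1 libraries and the log2 fold change of 67NR against control, which use different libraries, had Pearson's r of 0.789 and Spearman's rho of 0.538, and over the 38 genes with at least 50 counts in both 4T1 libraries 0.721 and 0.438. The genes share libraries and are not independent replicates. Replicate 1 was also higher for 38 of the 44 in 67NR medium and for 30 in control medium, with medians of 0.10 in each. Over the 14931 genes it was higher for 7800 and 7469, with medians of 0.01 and 0.00. For Usp18, Mx2, Rtp4, Ifi44, Ddx60, Isg15 and Phf11d the log2 ratio was 0.41, 0.31, 0.23, 0.43, 0.39, 0.16 and 0.33 in 67NR medium. In control medium, in the same order, it was -0.15, 0.62, 0.60, 0.73, 0.22, 0.29 and 0.14. Over tested genes with enough counts, the variance between replicates was 8.31 times counting noise in 4T1, 4.29 in 67NR and 4.25 in control medium.

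**Figure D4:**
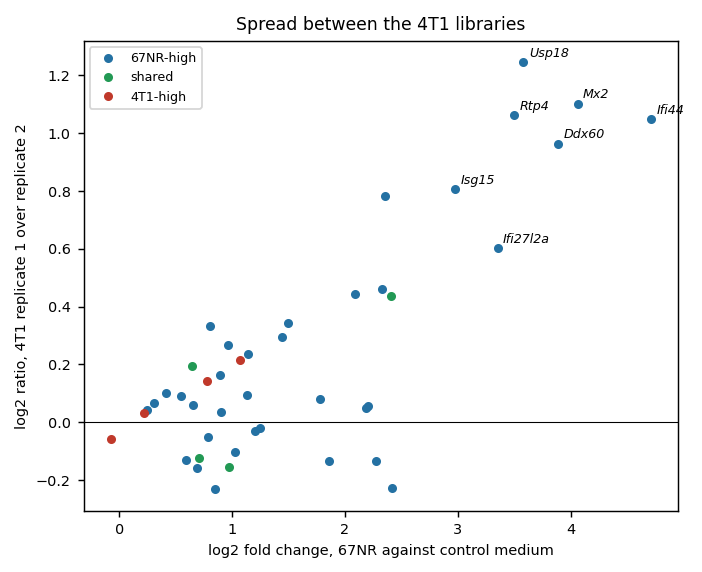
Each point is 1 of 44 genes, with its log2 fold change of 67NR against control on the horizontal axis and the log2 ratio of 4T1 replicate 1 to replicate 2 on the vertical axis, coloured by kind. Usp18, Mx2, Rtp4, Ifi44, Ddx60, Isg15 and Ifi27l2a lie at the upper right, at ratios from 0.60 to 1.25, while the 4T1-high genes lie between -0.06 and 0.21.

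The interferon pathway outside these genes was measured from a list of 27. None of the 9 ligands passed the filter. Ifnb1, which encodes interferon beta, had 0 and 0 counts in 4T1 medium, 3 and 1 in 67NR medium and 0 and 0 in control medium, where a group at 0 allows up to 3 counts, and Ifna1, Ifna2, Ifna4, Ifna5, Ifng, Ifnl2 and Ifnl3 had 0 in all 6 libraries. Over all genes tested, 19.9% rose and 19.2% fell in 4T1 medium, and 13% rose and 14.6% fell in 67NR medium. These lists are too short for their counts to be set firmly against those shares. Of 5 tested receptor chains, 3 rose and 1 fell in 4T1 medium and none passed in 67NR medium. Ifnar2, a chain of the type I receptor, had 96.5 and 95.9 CPM in 4T1 medium, 48.5 and 49.7 CPM in 67NR medium and 43.6 and 42 CPM in control medium, and Ifnar1 rose by 0.42 (log2) in 4T1 medium. The 8 kinases and factors held 6 that rose in 4T1 and 5 in 67NR medium. Stat2, Irf9 and Irf7, known as transcription factors of interferon signalling, rose in 67NR medium by 1.51, 1.43 and 2.61 on the log2 scale, and each was lower in 4T1 than in 67NR medium (log2 -0.91, -0.70 and -1.68). In 4T1 against control, Stat2, Irf9 and Irf7 also passed (log2 0.60, 0.73 and 0.93). Irf1 rose in both media, by 0.36 in 4T1 and 0.40 in 67NR medium on the log2 scale, and its level between them was not called. Of 4 inhibitors (Socs1, Socs3, Ptpn2 and Pias1), 3 rose in 4T1 and 1 in 67NR medium.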

How the data were processed

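Poly(A) RNA from 500 ng of total RNA was sequenced from directional libraries, per the labels' protocols. The deposited table holds unnormalized counts for each gene symbol, and the submitters' processing notes name Subread, mm10 and DESeq2 1.32.0. The strand setting of the counting was not given in the sources used here, hence overlapping, antisense and paralogous genes are uncertain. Total counts ranged from 13581510 to 21797578, and a single count stood for 0.0463 to 0.0743 CPM. Floors cover counting error only.

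The 48 genes, their roles and the lists were chosen with earlier results of these data known. Counts were filtered with filterByExpr (minimum 10, total 15) and scaled by TMM. All 6 libraries were fitted with the quasi-likelihood test of edgeR 4.0.16 (R 4.3.3), with medium as the factor and 3 residual degrees of freedom. Benjamini-Hochberg adjustment ran over 15055 genes at 0.05. An adjusted p given for an alternative comes from that alternative fit and is adjusted over its own genes. CPM used TMM-scaled totals of tested genes, and SE is the log2 fold change over the square root of F. Full statistics went to the 6 members per comparison with the largest called change among those whose media did not overlap and whose higher medium reached 5 CPM, and to Isg15, Usp18, Rsad2, Mx1, Bst2 and Ifitm3, except that Rsad2 and Mx1, which passed the filter only through 67NR medium, have no p against that medium. Those of Samd9l, Tdrd7, Trim30a, Ifi204, Ifitm2, Pnpt1, Epsti1 and Parp12 were added after their values were seen. Positions come from GENCODE M21 (GRCm38, the assembly of mm10). Alternatives were other scalings, filters, DESeq2 1.42.0, the replicate number as a block, 4-library fits and each library left out, where the spread of a lone library is borrowed from the other media. The code was tested on simulated data. Figures used matplotlib 3.10.9. Values of some genes on the marker and pathway lists are not reported here.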

Additional observations from a re-analysis of the deposited data

How the results depend on the processing

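The members' counts of calls stayed within 1.5 times of the reported ones in every alternative: 24 to 34 higher and 2 or 3 lower for 4T1 against control, 41 to 45 higher and 0 lower for 67NR against control, and 3 or 4 higher and 33 to 39 lower for 4T1 against 67NR. Called 4T1-high were 2 members instead of 4 with DESeq2 and 2 to 4 with a library left out, and shared were 3 to 8. Over all genes, leaving out a library gave 1043 to 2497 higher and 1184 to 2840 lower in 67NR against control, and 1891 to 2931 higher in 4T1 against control. Signs turned for changes that had not passed. With library totals alone, 4T1 against control was 0.0038 for Isg20 and 0.014 for Daxx (log2). With a library left out it ranged from -0.12 to 0.047 for Isg20, -0.061 to 0.031 for Daxx, -0.10 to 0.16 for Nmi, -0.32 to 0.14 for Cmpk2, -2.48 to 3.34 for Mx1 and -2.19 to 3.34 for Rsad2, and 4T1 against 67NR from -0.35 to 0.17 for Trim30a. With the replicate block, 34 members were higher in 4T1 against control, with Parp10 added (adjusted p = 0.0341), and no other call of a member changed. The numbers are not stated to pair samples, and deviations of same-numbered libraries correlated at 0.07, 0.01 and -0.04 between media. The genes of the authors' filtered table lack Rsad2, Mx1 and Cmpk2. Genes with few counts, such as these, limit what the depth can show. The cause of these changes was not tested.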
